A study of Mus musculus with 24 samples.

Results

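The Usp17l deubiquitinase genes of the mouse were followed across 24 RNA-seq libraries. The 5 members, Usp17la, Usp17lb, Usp17lc, Usp17ld and Usp17le, were found by matching the Ensembl gene IDs of the count tables to GENCODE release M21, and they are 5 of the 55487 gene IDs in each table. All 5 passed the filter on low counts, through their libraries with DOX.

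The cells, KH2 mouse embryonic stem cells, carry a DUX transgene under a promoter that doxycycline (DOX) switches on, which the titles write as TRE_DUX. DOX was given for 16 hours or left out, and each of the 12 groups holds 2 libraries. Total RNA was depleted of ribosomal RNA and sequenced with a strand-specific kit as paired reads of 75 bases. The question set by the design is how the response to DUX differs between wild-type cells and cells labelled as knockouts of DUXBL, TRIM24 or TRIM33. The first set has the genotypes WT and DUXBL_KO, each with and without DOX. The second set, whose titles carry the term pLV2, has WT line 1, WT line 2, TRIM24_KO and TRIM33_KO, each with and without DOX. What pLV2 means and which WT line was meant as the control of which knockout are not stated in the labels, and the number after pLV2 in WT titles was read as a line number. Libraries were grouped by their titles, and the treatment tag goes against the title in 8 pLV2 libraries. All 6 lines carry the transgene, so the libraries without DOX are uninduced rather than free of it. Each knockout label covers 1 line, and nothing in the labels says whether a line is 1 clone or whether the libraries of a group came from separate cultures. The p-values below therefore measure only the spread between these libraries. The growth protocol allows cells on gelatin or on a feeder layer of embryonic fibroblasts, without saying which was used here.

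Ubiquitin-specific proteases of the USP17 (DUB) family cut ubiquitin from proteins. The founding mouse members were described as genes that blood cells switch on quickly after a cytokine signal: Usp17la is the older Dub1 and Usp17lc the older Dub2. In the early embryo the transcription factor DUX switches on genes of the 2-cell stage, among them the Zscan4 cluster and MERVL endogenous retroviruses, and cells in which this program runs in culture are called 2-cell-like.

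All 5 members lie on chromosome 7 (GRCm38) in 2 groups among olfactory receptor genes. Usp17ld (chr7:103249737-103252505, minus strand) and Usp17lc (chr7:103415072-103419880, plus strand) are 162.566 kb apart. After a gap of 1348.168 kb come Usp17le (chr7:104768049-104777470, minus strand), Usp17lb (chr7:104840257-104842603, minus strand) and Usp17la (chr7:104857009-104862667, plus strand), with gaps of 62.786 and 14.405 kb between neighbours. They are close copies. The coding sequences of Usp17lc and Usp17ld are identical at 98.4% of aligned bases, and the other 9 pairs at 90.7% to 94.5%. Of all 75-base stretches of exon, 35.7% in Usp17lc and 43.4% in Usp17ld also occur in another gene, against 7.67% in Usp17la, 14.9% in Usp17lb and 15.3% in Usp17le. How reads that match several genes were counted is not given in the sources used here, so the split between Usp17lc and Usp17ld is the least certain, and their sum is given beside it.

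The promoter sequences are shown because the members moved together. RefSeq promoter windows on GRCm38.p6 matched 4 members, all but Usp17le. The 250 bases before the RefSeq start are printed 5′ to 3′ on each gene's own strand, for Usp17la (chr7:104856766-104857015, plus), Usp17lb (chr7:104842584-104842833, minus), Usp17lc (chr7:103416446-103416695, plus) and Usp17ld (chr7:103252506-103252755, minus). RefSeq and GENCODE starts differ for 3 of these genes: the Usp17lc window lies wholly inside the GENCODE gene given above, downstream of its start, and the Usp17la and Usp17lb windows reach a few bases into theirs. Capitals mark the letters TATAAA, known from the core of many promoters, and the letters CCACACCC, which all of these windows hold.
Usp17la: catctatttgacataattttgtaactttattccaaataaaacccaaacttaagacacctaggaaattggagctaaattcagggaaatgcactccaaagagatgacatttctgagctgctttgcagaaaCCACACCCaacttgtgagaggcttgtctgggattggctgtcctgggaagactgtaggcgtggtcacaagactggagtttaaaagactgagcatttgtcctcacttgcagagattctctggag
Usp17lb: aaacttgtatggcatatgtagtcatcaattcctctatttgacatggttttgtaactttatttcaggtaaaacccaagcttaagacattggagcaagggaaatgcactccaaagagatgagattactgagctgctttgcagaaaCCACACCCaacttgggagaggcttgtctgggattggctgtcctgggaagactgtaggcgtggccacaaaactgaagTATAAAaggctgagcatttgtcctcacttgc
Usp17lc: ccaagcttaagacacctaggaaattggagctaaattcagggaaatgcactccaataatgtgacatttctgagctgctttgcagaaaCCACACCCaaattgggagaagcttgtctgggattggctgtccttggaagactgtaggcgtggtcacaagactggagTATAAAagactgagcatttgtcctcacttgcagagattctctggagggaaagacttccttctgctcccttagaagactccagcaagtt
Usp17ld: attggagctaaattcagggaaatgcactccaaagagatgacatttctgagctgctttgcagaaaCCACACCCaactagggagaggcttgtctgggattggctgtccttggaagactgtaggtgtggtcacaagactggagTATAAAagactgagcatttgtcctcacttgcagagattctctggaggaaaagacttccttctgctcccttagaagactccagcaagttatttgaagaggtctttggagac

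The 250-base windows were aligned in pairs, and identity was taken over the bases aligned without gaps. It ran from 84.5% (Usp17lb with Usp17lc, 193 aligned bases) to 97.3% (Usp17la with Usp17ld, 186 aligned bases). The longest stretch shared by all 4 is ctgagctgctttgcagaaaccacacccaa, 29 bases that hold the second motif. Both motifs were searched on both strands, from 250 bases before to 50 after the start, and their matches do not overlap. CCACACCC occurs once in each of the 4 promoters and in 3.56% of the 32851 RefSeq promoters. It lies in the stretch that these close copies share, so its 4 matches are not separate observations. Whether it is more frequent here than in other promoters was not tested. TATAAA occurs in Usp17lb, Usp17lc and Usp17ld but not in Usp17la, and in 13.6% of all promoters.

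Gene counts per library ran from 11784696 to 19136869. CPM below are counts per 1000000 after TMM scaling over all 24 libraries. In 2 libraries with DOX a single gene, CT010467.1, took 30.4% (TRIM24_KO replicate 2) and 12.9% (TRIM33_KO replicate 2) of gene counts, against 0.0871% to 1.30% in the other 22. Of 15 stem cell markers all were detected, with a summed level of 5252 to 7018 CPM per library. The 15 fibroblast markers summed to 28.3 to 65.3 CPM, and 3 to 7 of them were at 0 in both libraries of a group. Trim33 RNA was at 22.0 ± 0.885 CPM (SD, n = 2) without DOX in TRIM33_KO and at 123 ± 2.25 to 175 ± 1.14 CPM in the other 5 lines. Trim24 RNA was not low in the libraries labelled TRIM24_KO: 138 ± 10.9 CPM without DOX, between 102 ± 4.33 in WT line 1 and 190 ± 21.6 in WT line 2. Duxbl1 RNA did not separate DUXBL_KO from WT either. It was at 0.530 ± 0.345 CPM in DUXBL_KO and 0.980 ± 0.933 in WT without DOX, and at 7.14 ± 3.89 and 5.11 ± 3.20 with DOX. RNA levels do not show whether a protein was lost, so TRIM24_KO and DUXBL_KO are used here as labels only. Dux itself (Duxf3) had 0 to 2 counts without DOX and 20 to 110 with it, and its count may hold transgene as well as endogenous transcripts.

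With DOX all 5 members rose in all 6 lines, from at most 26 counts in a library to at least 235. Every library with DOX was above every library without for 5 of 5 members in each line, as it was for 21.5% of all genes tested in WT, 21.8% in DUXBL_KO, 32.4% in WT line 1, 27.7% in WT line 2, 26.1% in TRIM24_KO and 30.9% in TRIM33_KO. The family summed to 0.190 ± 0.118 (WT) to 3.53 ± 0.327 CPM (WT line 1) without DOX and to 316 ± 201 (WT) to 2757 ± 221 CPM (TRIM33_KO) with it. In bulk RNA, more cells that express the genes and more RNA in each such cell cannot be told apart.

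Usp17le had the most counts. Without DOX they were 2 and 0 in WT, 12 and 9 in DUXBL_KO, 26 and 25 in WT line 1, 4 and 5 in WT line 2, 7 and 22 in TRIM24_KO, and 9 and 10 in TRIM33_KO (replicates 1 and 2). With DOX they were 3234 and 1373 in WT, 4143 and 3044 in DUXBL_KO, 3565 and 4180 in WT line 1, 8812 and 6638 in WT line 2, 3059 and 2967 in TRIM24_KO, and 12082 and 8842 in TRIM33_KO. Every library with DOX stood far above every library without, WT line 1 was highest of the uninduced lines, and TRIM33_KO highest of the induced ones. The ratio of pooled CPM was 178 in WT line 1 (95% counting interval 135 to 239), 348 in TRIM24_KO (242 to 520) and 377 in DUXBL_KO (246 to 609). It was 1943 in WT (538 to 16047), 2264 in TRIM33_KO (1449 to 3760) and 2458 in WT line 2 (1295 to 5377). These exact intervals cover counting error only, and the ratios depend on summed uninduced counts of 2 to 51.

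Usp17lc, the former Dub2, came second. Its counts without DOX were 1 and 1 in WT, 4 and 0 in DUXBL_KO, 5 and 8 in WT line 1, 3 and 4 in WT line 2, 5 and 1 in TRIM24_KO, and 8 and 1 in TRIM33_KO. Induced counts were 2774 and 1141 in WT, 3464 and 3460 in DUXBL_KO, 2704 and 3339 in WT line 1, 5654 and 5316 in WT line 2, 4096 and 4000 in TRIM24_KO, and 8441 and 6285 in TRIM33_KO. Groups with and without DOX did not overlap in any line, and TRIM24_KO had more Usp17lc than Usp17le counts in both libraries. The smallest ratio was 545 (318 to 1024) in WT line 1 and the largest 3363 (1771 to 7356) in TRIM33_KO.

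Usp17lb and Usp17la, neighbours 14.405 kb apart on opposite strands, followed. Usp17lb had 0 to 5 counts in each library without DOX. With DOX its counts were 1186 and 443 in WT, 1425 and 1087 in DUXBL_KO, 1293 and 1562 in WT line 1, 3937 and 2935 in WT line 2, 905 and 811 in TRIM24_KO, and 4339 and 3013 in TRIM33_KO. TRIM24_KO was the lowest of the 4 pLV2 lines for this gene in counts. Usp17la, the former Dub1, had 10 and 17 counts without DOX in WT line 1 and 0 to 9 in the other libraries. Its counts with DOX were 956 and 411 in WT, 1165 and 1076 in DUXBL_KO, 1610 and 1962 in WT line 1, 3079 and 2437 in WT line 2, 1173 and 1091 in TRIM24_KO, and 3788 and 2799 in TRIM33_KO. Again no line's groups overlapped. In WT, where Usp17la had 0 counts without DOX, the DOX level was at least 192-fold higher, taking 3 counts per library as the floor.

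Usp17ld was lowest. It had 0 to 5 counts per library without DOX and was at 0 in both libraries of WT line 2 and of TRIM33_KO. With DOX its counts were 495 and 235 in WT, 683 and 655 in DUXBL_KO, 712 and 750 in WT line 1, 1133 and 1045 in WT line 2, 632 and 778 in TRIM24_KO, and 1608 and 1229 in TRIM33_KO. Against the same floor the induced level was at least 520-fold higher in WT line 2 and at least 972-fold higher in TRIM33_KO.

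**Figure D1:**
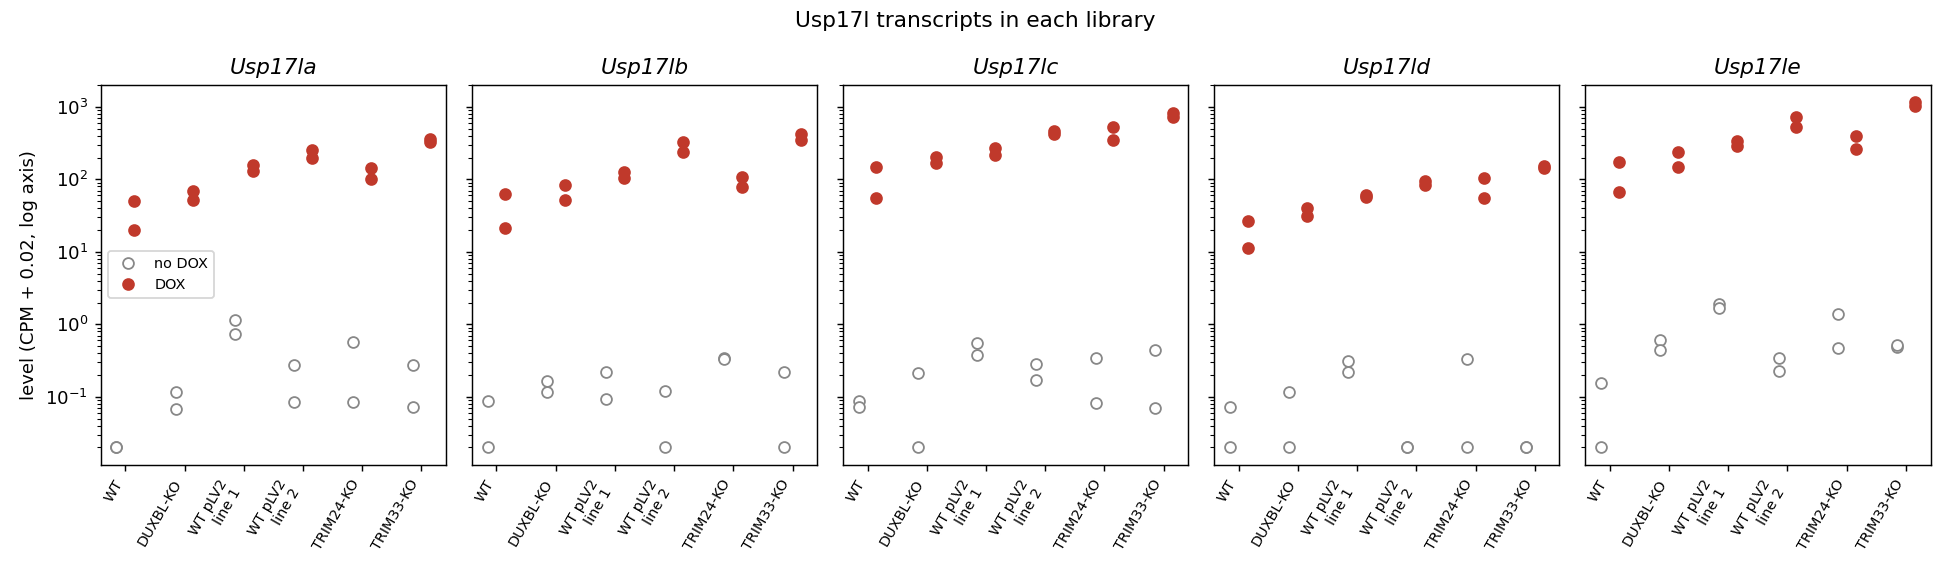
Level of each Usp17l gene in every library, as CPM plus 0.02 on a log axis, for the 6 lines on the horizontal axis, with open grey points for no DOX and filled red points for DOX (2 libraries per group). All filled points lie above all open points in each panel, and TRIM33-KO is highest with DOX for every member.

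edgeR's quasi-likelihood test with Benjamini-Hochberg adjustment over all genes called 5 of 5 members higher with DOX in each line. With at most 26 counts in a library without DOX, the members had little room to be called lower. They were also chosen with earlier results of these data known. In WT the adjusted p ran from 0.00374 to 0.00460, where 2.82% of all 18060 genes tested were called higher and 0.105% lower. In DUXBL_KO it ran from 0.00167 to 0.00204, against 4.5% of genes called higher and 0.404% lower. In the pLV2 set, with 18079 genes, the largest adjusted p of a member was 3.31e-09 in WT line 1 (10% of genes higher, 6.25% lower), 2.23e-10 in WT line 2 (12.7% and 14%), 6.45e-10 in TRIM24_KO (11.5% and 4.94%) and 3.37e-11 in TRIM33_KO (16.5% and 20.1%). The WT call rested on pooling the spread of the first set. It was lost when the fit held the 4 WT libraries alone (0 of 5, adjusted p 0.0516 to 0.0544) or on leaving out WT replicate 2 without DOX (0 of 5), and Usp17lb alone was lost without WT replicate 1 without DOX (edgeR adjusted p = 0.0508), while the ratio of summed family counts in WT was 1722 (791 to 4692).

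Levels per kilobase of exon allow the genes to be set beside each other. In TRIM33_KO with DOX, Usp17le stood at 554 ± 44.9 CPM per kb, Usp17lc at 316 ± 21.8, Usp17lb at 247 ± 29.1, Usp17la at 130 ± 9.69 and Usp17ld at 75.2 ± 3.79 (SD, n = 2). Each step in that order was larger than the spread of the libraries. The order of the means was the same in WT, DUXBL_KO and both WT pLV2 lines. The members are measured in the same libraries, so a library that is high for 1 of them tends to be high for all, and the order was also read within each library. It held in 9 of the 12 libraries with DOX. In WT, where levels ran from 59.9 ± 37.5 for Usp17le to 9.47 ± 5.31 for Usp17ld and the libraries of neighbours in the order overlapped, both libraries kept it, from 86.4 for Usp17le to 13.2 for Usp17ld in replicate 1 and from 33.4 to 5.71 in replicate 2. The exceptions were WT line 2 replicate 1, where Usp17lb lay above Usp17lc, and TRIM24_KO. In both TRIM24_KO libraries Usp17lc came first, at 145 and 218 CPM per kb beside 133 and 199 for Usp17le, followed by Usp17lb, Usp17la and Usp17ld. With 2 libraries a line these orders are a description.

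**Figure D2:**
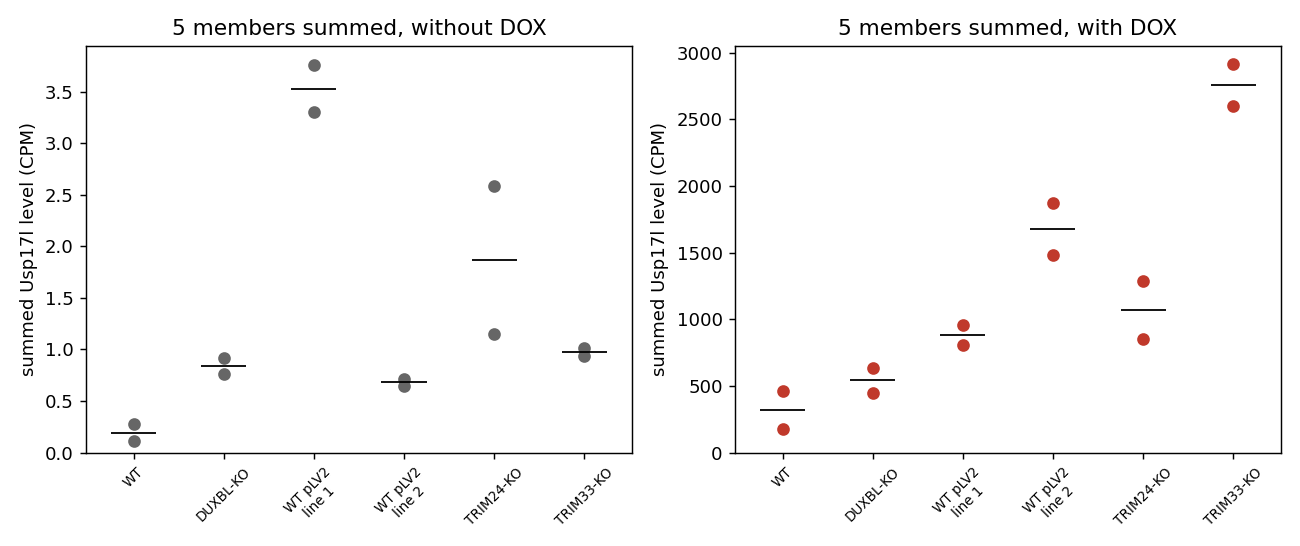
Summed level of the 5 members in CPM on linear axes starting at 0, without DOX (left) and with DOX (right), for the 6 lines; points are libraries and bars the mean of 2. WT line 1 is highest without DOX (3.53 CPM) and TRIM33-KO with DOX (2757 CPM).

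The summed level with DOX put the lines in the order WT (316 ± 201 CPM), DUXBL_KO (543 ± 132), WT line 1 (881 ± 111), TRIM24_KO (1071 ± 306), WT line 2 (1675 ± 276) and TRIM33_KO (2757 ± 221). WT and DUXBL_KO are the first set and the other lines the pLV2 set. Between these sets, a difference of line and a difference of set cannot be told apart. WT and DUXBL_KO overlapped, with libraries at 459 and 174 CPM in WT and 636 and 449 in DUXBL_KO, and so did WT line 1 (803 and 960) and TRIM24_KO (854 and 1287). WT line 2 (1870 and 1480) and TRIM33_KO (2913 and 2600) overlapped with no neighbour. RNA counted as Duxf3 was not in that order. It was at 1.09 ± 0.180 CPM in WT, 3.45 ± 1.33 in DUXBL_KO, 8.34 ± 0.872 in WT line 1, 3.25 ± 0.0630 in TRIM24_KO, 4.53 ± 0.372 in WT line 2 and 6.92 ± 0.831 in TRIM33_KO. WT line 1 had the highest Duxf3 level and the third lowest family level. These levels rest on 20 to 110 counts per library. How much of the transgene's RNA they hold is unknown, so they do not rank the lines by total Dux RNA. Of 10 markers of the 2-cell-like state, 9 were found in the tables, and all 9 rose with DOX in each line. Their summed level with DOX was 675 to 1655 CPM in WT, 1287 to 1966 in DUXBL_KO, 1343 to 1661 in WT line 1, 1447 to 2212 in TRIM24_KO, 4109 to 5735 in WT line 2 and 7394 to 8097 in TRIM33_KO. Among the pLV2 lines WT line 2 and TRIM33_KO were thus highest for the markers and for the Usp17l genes, whereas WT and DUXBL_KO overlapped WT line 1 for the markers and lay below it for the Usp17l genes.

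TRIM33_KO had more of every member with DOX than the mean of both WT pLV2 lines. The log2 difference was 1.29 ± 0.14 (SE) for Usp17le, 1.22 ± 0.13 for Usp17lc, 1.09 ± 0.13 for Usp17lb, 1.03 ± 0.16 for Usp17ld and 0.93 ± 0.13 for Usp17la. All 5 were called higher by edgeR (adjusted p 5.15e-06 to 3.45e-04), where 15.1% of genes were higher and 11.7% lower. Both TRIM33_KO libraries had a higher CPM than all 4 WT libraries for each member, as they had for 14.6% of all genes tested. Against WT line 1 alone the differences were 1.24 (Usp17la) to 1.79 (Usp17le), and against WT line 2 alone 0.46 (Usp17lb) to 0.80 (Usp17le). All 5 were called against WT line 1, beside 21.4% of genes higher and 21.8% lower. Against WT line 2, 4 were called and Usp17lb was not (edgeR adjusted p = 0.113), beside 2.79% of genes higher and 0.785% lower. The 9 markers of the 2-cell-like state were higher in TRIM33_KO as well, 9 of 9 called, with a median log2 difference of 1.39 beside 1.09 for the 5 members and -0.01 for all genes. Of the 15 stem cell markers 2 were called higher and 11 lower, with a median of -0.33. The part of the 2-cell-like share of cells, or of the stem cell markers, in the difference was not tested.

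The 2 WT pLV2 lines differed from each other by amounts close to this. WT line 2 had more of each member with DOX than WT line 1: the log2 difference was 1.26 ± 0.16 for Usp17lb, 0.99 ± 0.17 for Usp17le, 0.85 ± 0.16 for Usp17lc, 0.62 ± 0.16 for Usp17la and 0.57 ± 0.20 for Usp17ld. edgeR called 5 of 5 higher (adjusted p 9.26e-06 to 0.0350), where 19.5% of all genes were higher and 20.6% lower. Usp17ld lost the call on leaving out any 1 of the 4 libraries. Usp17la lost it without replicate 1 of line 1 or replicate 1 of line 2, which left 3 of 5. DESeq2 called 3 of 5, without Usp17la (adjusted p = 0.0597) and Usp17ld (adjusted p = 0.181). All 9 markers of the 2-cell-like state were also higher in line 2 with DOX, by a median of 1.54, while 2 of the 15 stem cell markers were higher and 11 lower, with a median of -0.49. The part of these markers in the difference was not tested.

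In the libraries labelled TRIM24_KO the members went in different directions. Against the mean of both WT pLV2 lines with DOX, Usp17lb was lower by 0.93 on the log2 scale (-0.93 ± 0.14, adjusted p = 6.83e-05), Usp17la was at -0.52 ± 0.14 (adjusted p = 0.00732) and Usp17le at -0.40 ± 0.15 (adjusted p = 0.0395), all by edgeR. Usp17lc was higher, at 0.46 ± 0.13 (edgeR adjusted p = 0.0119), and Usp17ld was at 0.14 ± 0.18 (edgeR adjusted p = 0.558). Thus 1 member was called higher and 3 lower, beside 22.7% and 18.1% of all genes. The summed family was at -0.14 ± 0.15 (edgeR adjusted p = 0.463). Which calls held depended on the reference line. Against WT line 1 alone only Usp17lc was called (0.88 ± 0.16, edgeR adjusted p = 4.36e-04, beside 17.9% of genes higher and 14.3% lower), with Usp17lb at -0.29, Usp17la at -0.21, Usp17ld at 0.43 and Usp17le at 0.10. Against WT line 2 alone Usp17lb (-1.56), Usp17le (-0.89) and Usp17la (-0.83) were called lower, while Usp17lc was at 0.03 and Usp17ld at -0.14, beside 24.7% of genes higher and 22.1% lower. Single libraries mattered too. Without TRIM24_KO replicate 1 with DOX, Usp17la (-0.29) and Usp17le (-0.15) were no longer called and Usp17ld was (0.54), and without replicate 2, the library rich in CT010467.1, Usp17lc (0.16) was no longer called and Usp17ld turned to -0.35 (edgeR adjusted p = 0.0444). Usp17le also lost its call without WT line 1 replicate 2 (-0.34) or WT line 2 replicate 1 (-0.28) with DOX, and DESeq2 did not call Usp17la (adjusted p = 0.0873). Of the 9 markers of the 2-cell-like state, 2 were called higher and 3 lower.

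**Figure D3:**
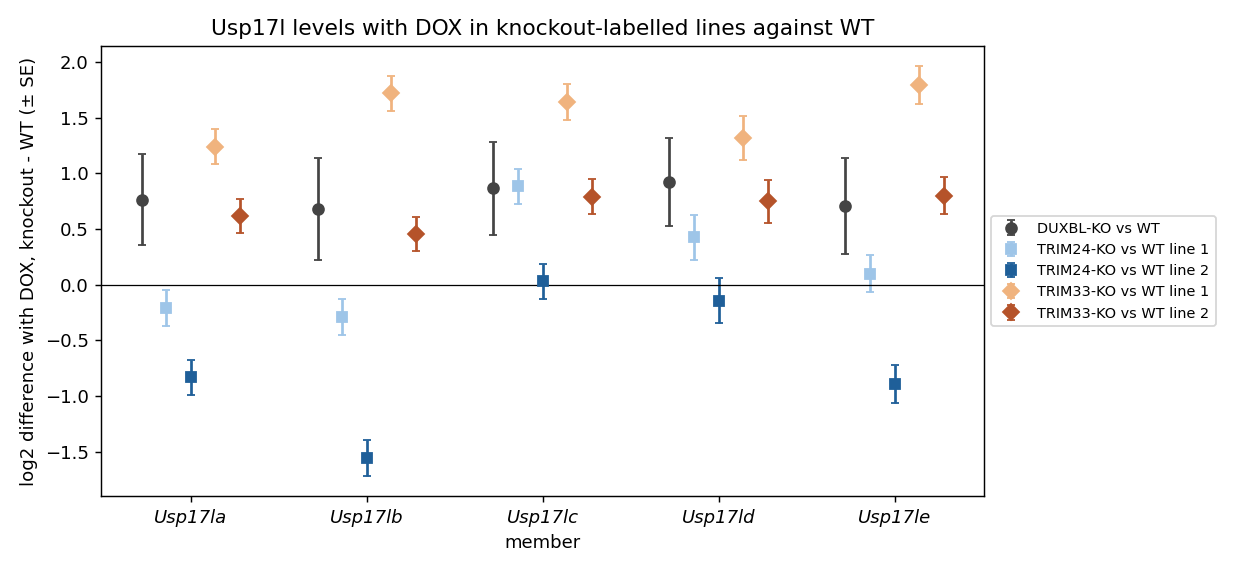
Log2 difference in level with DOX between each knockout-labelled line and WT, for each member on the horizontal axis; points are edgeR estimates and bars the standard error, with TRIM24-KO and TRIM33-KO set against WT line 1 and WT line 2 in turn. TRIM33-KO lies above 0 for all members against both lines (0.46 to 1.79), while TRIM24-KO runs from -1.56 (Usp17lb, line 2) to 0.88 (Usp17lc, line 1).

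Shares within the family do not depend on library size. Here the sum of Usp17lc and Usp17ld was taken, a pairing looked at after the values were seen, so it is described without a test. Of the Usp17l counts of a library with DOX, these 2 genes held 47.9% (95% Wilson interval 46.9% to 48.9%) and 49.5% (48.5% to 50.5%) in TRIM24_KO. In WT line 1 they held 34.6% and 34.7%, in WT line 2 30.0% and 34.6%, and in TRIM33_KO 33.2% and 33.9%. In WT the share was 37.8% and 38.2%, and in DUXBL_KO 38.1% and 44.1%. The Wilson interval reached at most 1.59 percentage points to either side, for counting error only. TRIM24_KO was thus above the other 10 libraries, which ranged from 30.0% to 44.1%, and the intervals of the 2 DUXBL_KO libraries did not overlap. Usp17le held the largest share, 30.8% to 39.9% over the 12 libraries, except that Usp17lc was larger in TRIM24_KO (41.5% in both) and in DUXBL_KO replicate 2 (37.1%). Usp17lb had its lowest shares in TRIM24_KO, 9.17% and 8.41%, against a highest of 17.4% in WT line 2.

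**Figure D4:**
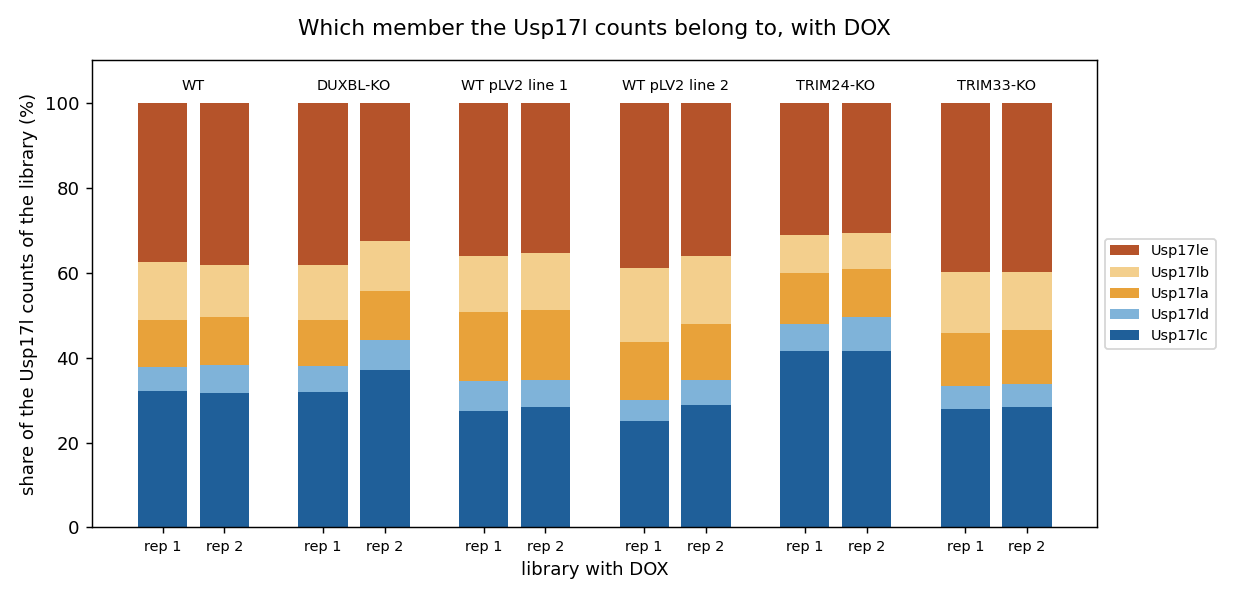
Share of each member in the Usp17l counts of a library, in percent, as stacked bars for the 12 libraries with DOX. The blue segments, Usp17lc and Usp17ld, together reach 47.9% and 49.5% in TRIM24-KO and 30.0% to 44.1% in the other 10 libraries.

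DUXBL_KO had higher means than WT with DOX for all 5 members, and whether a member passed the test depended on the fit. In the fit with a filter on low counts and no replicate block none did. The log2 difference was 0.92 ± 0.40 for Usp17ld, 0.87 ± 0.42 for Usp17lc, 0.76 ± 0.41 for Usp17la, 0.70 ± 0.43 for Usp17le and 0.68 ± 0.46 for Usp17lb (edgeR adjusted p 0.499 to 0.663). Single libraries weighed heavily: on leaving 1 out, the differences ranged from 0.10 (Usp17lb) to 1.73 (Usp17lc). edgeR called 0 of 5 members in either direction, beside 0.0166% of genes higher and 0.0554% lower, with 0 members at an unadjusted p under 0.05, and DESeq2 called 0 as well. The libraries of the 2 groups overlapped for Usp17lb and Usp17le, for which WT replicate 1 lay above DUXBL_KO replicate 2 in CPM. They did not for Usp17la (50.7 and 19.9 CPM in WT, 68.2 and 51.9 in DUXBL_KO), Usp17lc (147 and 55.1, 203 and 167) or Usp17ld (26.3 and 11.4, 40.0 and 31.6). Of all genes tested 22.3% had both DUXBL_KO libraries above both WT libraries. WT replicate 2 was the lowest library for each member. Without a filter on low counts 5 of 5 were called higher, beside 1.34% of 34489 genes higher and 1.3% lower in that fit.

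Without DOX, edgeR called no member in DUXBL_KO, TRIM24_KO or TRIM33_KO against WT, where 0%, 20.9% and 12.8% of genes were called higher and 0.0388%, 22.5% and 11.1% lower. In each of these 3 comparisons 0 members had an unadjusted p under 0.05, and DESeq2 called 0. The counts were too low for a lack of calls to show that lines were alike: the standard error of a member's log2 difference was 0.53 to 3.32, and none could be estimated for Usp17ld in TRIM33_KO, where both libraries were at 0. In DUXBL_KO Usp17le was at 2.91 ± 1.78, from 2 and 0 counts in WT to 12 and 9. For TRIM33_KO the calls depended on the reference line: against WT line 1 alone Usp17le (-1.85, edgeR adjusted p = 0.0108) and Usp17la (-2.55, edgeR adjusted p = 0.0345) were called lower, beside 20.2% of genes higher and 20.6% lower. The 2 WT pLV2 lines did differ before induction. Usp17le was lower in line 2 than in line 1 by a log2 difference of -2.75 ± 0.63 (edgeR adjusted p = 0.00239), from 26 and 25 counts to 4 and 5. Usp17la was lower by -2.41 ± 0.92 (edgeR adjusted p = 0.0487), from 10 and 17 counts to 5 and 1, a call that was lost on leaving out any 1 of those 4 libraries, or replicate 1 of TRIM33_KO with or without DOX. With these 2 of 5 members called lower, the background was 19.3% of genes lower and 18.9% higher. The summed level of the 9 markers of the 2-cell-like state was 4.23 to 4.95 CPM in line 1 and 1.12 to 1.23 in line 2. Their part in the difference was not tested. So line 1 was above line 2 for Usp17le without DOX and below it with DOX.

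Across the 12 libraries with DOX the members varied together. Pearson's r of log2(CPM + 0.5) between members ran from 0.913 (Usp17lb with Usp17lc) to 0.988 (Usp17lb with Usp17le), and Usp17lc with Usp17ld stood at 0.986. These correlations describe libraries of 6 lines that share depth and 2-cell-like content, and close copies may share reads. Among 11842 genes with a mean of at least 50 counts, those most like Usp17le were Gm13078 on chromosome 4 (r = 0.996), AC136710.1 (0.994), Ric3 on chromosome 7 (0.994), AC127331.6 (0.992) and Gm43391 (0.992). Usp17lb ranked 12, Usp17la 30, Usp17ld 90 and Usp17lc 154. The Zscan4c gene ranked 120 (r = 0.963) and Duxf3 1261 (r = 0.745).

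Most neighbouring genes had few or no counts. Within 250 kb of a member GENCODE lists 96 other genes, 73 of them olfactory receptor genes or their pseudogenes, and 84 had at most 3 counts in every library with DOX. Only 6 could be tested in any line. Gm25774, a miRNA gene that lies within Usp17lc on the same strand (chr7:103415806-103415926), was the 1 gene called higher in all 6 lines, by 8.10 to 10.24 on the log2 scale of edgeR, with 0 or 1 counts without DOX and 23 to 181 with it. Because it lies within Usp17lc, its reads and those of unspliced Usp17lc RNA cannot be told apart. Gm25171, a miRNA gene upstream of Usp17ld, was called higher in 5 lines (at most 38 counts), Olfr653 in 4, and Olfr651 and Olfr652 in 3 each (at most 22 counts). These 5 genes had at most 1 count in a library without DOX, so they could be tested only through their libraries with DOX and could not have been called lower. The sixth, Gm5900, a processed pseudogene with up to 28 counts without DOX and 2 to 22 with it, was called in neither direction. Of the copies that share sequence with the family, Usp17le-ps had at most 2 counts in a library, and Gm5053 had 0 to 2 counts without DOX and 9 to 74 with it.

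Among the other ubiquitin-specific proteases Usp9y alone was called higher with DOX in every line. Of 52 listed genes 51 were tested. With DOX 1 was called higher and 0 lower in WT and likewise in DUXBL_KO, 6 higher and 2 lower in WT line 1, 6 and 15 in WT line 2, 4 and 2 in TRIM24_KO, and 9 and 18 in TRIM33_KO. Of all genes tested, 2.82% were higher and 0.105% lower in WT, and 4.5% and 0.404% in DUXBL_KO. The shares were 10% and 6.25% in WT line 1, 12.7% and 14% in WT line 2, 11.5% and 4.94% in TRIM24_KO, and 16.5% and 20.1% in TRIM33_KO. The list's median log2 change was between -0.16 and 0.04, beside -0.09 to -0.00 for all genes. Usp9y, a Y-linked protease, was higher by 4.91 in WT to 11.03 in WT line 1 (edgeR adjusted p at most 0.00264). Usp46 was called lower in 4 lines, with log2 changes of -0.70 to -0.05 over the 6. Of 7 genes whose human proteins have been reported as USP17 substrates, 6 were tested. None was called in WT or DUXBL_KO, 0 higher and 1 lower in WT line 1, 0 and 2 in WT line 2, 1 and 2 in TRIM24_KO, and 1 and 3 in TRIM33_KO, beside the same shares of all genes. With 6 genes such counts rest on single genes. Ddx58, which encodes the RNA sensor RIG-I, was called lower in 4 lines, with log2 changes of -0.89 to -0.22 over the 6.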

How the data were processed

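Each of the 24 deposited tables holds raw counts per gene and per repeat subfamily (1146 of them), whole numbers the authors did not normalise, per the file headers and values. Per the submitters' processing notes, bcl2fastq 2.20.0, cutadapt 1.18, STAR 2.7.6a and the mm10 build were used. The counting tool and its handling of reads with several matches are not given in the sources used here. Of 55487 gene IDs, 54435 matched GENCODE M21 with their version, 792 without it and 260 not at all. Groups came from titles, which disagree with the treatment tag in 8 pLV2 libraries. Replicate pairs differed by more than sampling noise (chi-square per degree of freedom 3.26 to 324).

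Both sets were fitted apart with edgeR 4.0.16 in R 4.3.3 (glmQLFit, glmQLFTest, TMM, filterByExpr by group, 1 mean per group), on 18060 and 18079 genes, with Benjamini-Hochberg adjustment over all genes and a threshold of 0.05. The fits were tested on simulated data. The common biological coefficient of variation was 17.8% and 8.55%. Each standard error (SE) of a log2 difference was derived from the test, as its absolute value over the square root of F. Such errors are unreliable where counts are near 0. In the pLV2 set the reference for both knockouts was the average of the WT lines. Ratios of DOX to no DOX are pooled CPM with exact 95% intervals. Where all uninduced libraries had 0 counts the floor was 3 counts per library. The plan had named such a bound also for 1 to 3 counts, for which a ratio with its interval is given instead. Alternatives were RLE scaling, other filters and library sizes, a replicate block, only the compared groups, DESeq2 1.42.0, the summed family, each WT line as reference and each library left out.

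Named genes were the 5 members, Duxf3, Zscan4c, the 5 genes most like Usp17le, neighbours within 250 kb called in all 6 lines, other USP genes called the same way in all or most lines, and reported substrates called in at least 4. Other neighbours and sequence copies were named after their values were seen. The members and lists were chosen with earlier results of these data known.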

Additional observations from a re-analysis of the deposited data

Results flagged for a closer look

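The effect of DOX on Usp17le differed between the 2 WT pLV2 lines. Its interaction term, line 2 minus line 1, was 3.75 ± 0.64 on the log2 scale (edgeR adjusted p = 0.0191), 1 of 43 genes called among 18079. The counts behind it were 26 and 25 without DOX against 3565 and 4180 with DOX in line 1, and 4 and 5 against 8812 and 6638 in line 2. The other members were not called for the same term, with Usp17la at 3.03 ± 0.92 (edgeR adjusted p = 0.299) and Usp17lc at 2.01 ± 0.93 (0.630). This test was added after the values were seen. The 2-cell-like markers moved with it, at 4.23 to 4.95 CPM without DOX in line 1 and 1.12 to 1.23 in line 2, and their part was not tested.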

How the results depend on the processing

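With DOX the calls of 5 members held under the alternatives run in DUXBL_KO, WT line 1, WT line 2, TRIM24_KO and TRIM33_KO. In WT the number called was 0 with only the compared groups and 0 to 5 on leaving out single libraries. DUXBL_KO against WT with DOX gave 0 in the main fit and 5 without a filter on low counts. TRIM24_KO with DOX gave 4 of 5, and 1 with WT line 1 alone. Usp17le then turned to 0.10, and Usp17ld turned to -0.14 against WT line 2 alone and ranged from -0.35 to 0.54 on leaving out single libraries. TRIM33_KO with DOX gave 5, and 4 against line 2 alone. Line 2 against line 1 with DOX gave 5, 3 with DESeq2, and 3 to 5 with a library left out. Without DOX, DUXBL_KO gave 0 and, with no filter, 1. TRIM33_KO gave 0 and, against line 1 alone, 2. Line 2 against line 1 gave 2, and 1 with a mean of at least 10 counts, 3 with DESeq2 or no filter, and 1 to 3 with a library left out.

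A replicate block was fitted, but each group has only 2 numbers, and no label says that a number marks a shared culture or day. With the block 1 member was called in DUXBL_KO against WT with DOX (Usp17le, 0.81, edgeR adjusted p = 0.0366, the other 4 at 0.0658 to 0.0885), where all genes called rose from 3 higher and 10 lower to 174 and 311. In line 2 against line 1 without DOX 1 member was called. The number of members called was otherwise unchanged by the block. Same-numbered libraries deviated together with r = 0.176 to 0.422 in the first set and -0.0280 to 0.130 in the pLV2 set. Library sizes without CT010467.1, an alternative chosen after earlier results were known, changed no number of members called. With only the compared groups in the fit, fewer members could be tested without DOX, and DUXBL_KO against WT gave no value there. Depth limits the uninduced levels, which rest on 0 to 26 counts per gene and library.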
